A study of Mus musculus with 2 samples.

Results

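The genes described here are the mouse receptors for the Fc part of IgG, namely Fcgr1, Fcgr3, Fcgr4 and Fcgr2b, and the signalling chain Fcer1g. They were taken by gene symbol, 5 of the 27998 genes in the count files, and set out as activating receptors (Fcgr1, Fcgr3, Fcgr4) against the inhibitory receptor (Fcgr2b). The cells came from brains of adult wild-type C57BL/6J mice and were sorted as CD11b+/CD45+, a gate that takes in microglia and other myeloid cells. In the CD library 4 mice that had eaten control diet for 19 days were pooled. The Repop D5 library pooled 6 mice given PLX5622, an inhibitor of Csf1r on which microglia depend for survival, for 14 days and put back on control diet for 5 days, a time when microglia repopulate the brain. Each group is 1 library, so there is no test between groups, the spread between mice is unknown, and every 95% interval covers counting error only.

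Fc gamma receptors let myeloid cells sense IgG bound to a target and start phagocytosis, oxidative burst and cytokine release. The activating alpha chains bind the antibody and signal through the ITAM (an activating tyrosine motif) of the gamma chain Fcer1g, which recruits the kinase Syk. Fcgr2b carries an ITIM, an inhibitory tyrosine motif, which recruits the phosphatase encoded by Inpp5d and sets the threshold for activation when both kinds of receptor are bound.

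In the GENCODE M21 annotation of mm10, Fcgr2b (ENSMUSG00000026656, chr1:170958617-170976547, minus strand), Fcgr4 (ENSMUSG00000059089, chr1:171018920-171029761, plus strand), Fcgr3 (ENSMUSG00000059498, chr1:171051174-171064935, minus strand) and Fcer1g (ENSMUSG00000058715, chr1:171229572-171234365, minus strand) are neighbours on chromosome 1. Fcgr1 (ENSMUSG00000015947, chr3:96282909-96293969, minus strand) lies on chromosome 3. The promoters of the 4 receptors are shown because the receptors differed between the libraries in different directions while 3 of them share a locus. Each is the RefSeq window (GRCm38.p6) from 250 bases before to 50 bases after the annotated start, written 5′ to 3′ on the gene's strand, and capitals mark motif matches. The RefSeq table holds another Fcgr3 window, which overlaps the one shown. The GENCODE gene starts of Fcgr3 and Fcgr2b, at 171064935 and 170976547 on the minus strand, lie upstream of the windows shown. For these genes the presence or absence of a motif holds for the RefSeq start only.
Fcgr1 (chr3:96293920-96294219, minus strand): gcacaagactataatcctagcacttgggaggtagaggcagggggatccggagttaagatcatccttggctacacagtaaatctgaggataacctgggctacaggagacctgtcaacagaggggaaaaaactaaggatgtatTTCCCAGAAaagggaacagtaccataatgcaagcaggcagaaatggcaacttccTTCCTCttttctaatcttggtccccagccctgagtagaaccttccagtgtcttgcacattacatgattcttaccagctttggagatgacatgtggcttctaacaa
Fcgr3 (chr1:171059354-171059653, minus strand): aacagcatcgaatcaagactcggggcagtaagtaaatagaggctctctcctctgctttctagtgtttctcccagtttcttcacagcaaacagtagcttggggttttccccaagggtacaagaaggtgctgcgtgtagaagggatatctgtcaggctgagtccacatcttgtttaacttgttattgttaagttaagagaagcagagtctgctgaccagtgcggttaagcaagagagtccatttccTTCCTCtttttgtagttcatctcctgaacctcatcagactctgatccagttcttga
Fcgr4 (chr1:171018676-171018975, plus strand): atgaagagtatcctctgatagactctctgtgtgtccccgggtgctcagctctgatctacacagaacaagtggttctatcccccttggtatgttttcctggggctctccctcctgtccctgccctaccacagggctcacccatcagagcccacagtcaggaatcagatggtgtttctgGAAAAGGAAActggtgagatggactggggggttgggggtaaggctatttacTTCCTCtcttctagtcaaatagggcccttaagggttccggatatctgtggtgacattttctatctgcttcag
Fcgr2b (chr1:170976022-170976321, minus strand): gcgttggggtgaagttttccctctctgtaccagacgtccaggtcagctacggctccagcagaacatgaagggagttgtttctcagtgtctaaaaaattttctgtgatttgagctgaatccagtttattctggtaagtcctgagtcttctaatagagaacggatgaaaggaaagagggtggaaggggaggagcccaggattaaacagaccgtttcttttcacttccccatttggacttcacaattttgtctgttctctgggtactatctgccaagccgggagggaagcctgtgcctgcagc
Of 3 motifs searched on both strands, the core GAGGAA of the myeloid factor PU.1, which reads TTCCTC on the opposite strand, had 1 match each in the windows of Fcgr1, Fcgr3 and Fcgr4. The letters GAGGAA are found in 28.3% of the 32851 promoter windows of this length. A GAS pattern (TTCNNNGAA, an element of interferon-responsive promoters) matched as TTCCCAGAA in the Fcgr1 window, against 8.30% of all windows. A pattern resembling an ISRE, the form bound by interferon-regulated complexes (GAAA, any 2 bases, GAAA), matched as GAAAAGGAAA in the Fcgr4 window, against 3.44% of all windows. The Fcgr2b and Fcer1g windows held no match. No matches overlapped each other, and a match describes letters only, not binding.

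The CD library gave 609 cells with 6055886 UMIs (unique molecular identifiers, each counted as 1 RNA molecule), and the Repop D5 library gave 553 retained cells with 11037921 UMIs. The median was 5982 UMIs per cell in CD and 16226 in Repop D5, and median mitochondrial shares were 2.00% and 4.78%. The libraries shared 1 barcode. Joint clustering without the 5 genes gave 12 clusters, of which cluster 6 was monocyte-like, cluster 7 border macrophage-like (macrophages of vessels and brain coverings) and cluster 9 neutrophil-like. Cluster 11, with 4 cells, stayed unnamed, and the others were microglia-like with 9 or 10 of 10 microglia markers at 50 CPM. CPM stands for the UMIs of a gene scaled to a fixed common total of the library or cluster. Clusters 6, 7 and 9 also had 9, 10 and 10 of these markers at 50 CPM, so this count does not set them apart. Like every other cluster, cluster 0 had no microglia gene among its leading genes, although its microglia markers summed to 39271 CPM in CD. It also had a platelet gene among its leading genes, so the microglia-like class as a whole did not qualify for a comparison. The main values therefore cover every retained cell, and values outside clusters 6, 7 and 9 (466 cells of CD, 497 of Repop D5) stand beside them.

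Fcgr3, the low-affinity activating receptor, and Fcgr2b, its inhibitory counterpart, were both lower in Repop D5 than in CD. Fcgr4 was higher, and the high-affinity receptor Fcgr1 and the gamma chain Fcer1g were less than 1.5-fold different. A gene counted as higher or lower at a ratio of Repop D5 over CD of at least 1.5, or at most the inverse of 1.5, and an interval that excluded 1, among genes at 10 CPM or more in 1 library. All 5 genes passed that minimum, and 1 was higher, 2 were lower and 2 were neither. Over the 8463 genes at that minimum, 16.8% were higher and 42.1% were lower, so a lower call was common in this comparison. The median log2 ratio, on (CPM + 1), was -0.31 for the 5 genes and -0.38 for all genes.

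Among the activating receptors, Fcgr3 had 8209 UMIs in CD and 5343 in Repop D5. Its level was 1356 CPM in CD against 484 in Repop D5, 2.80-fold lower (95% interval 2.71 to 2.90). It was 3.02-fold lower outside clusters 6, 7 and 9. Fcgr3 was thus further down than the median gene, by 1.10 on the log2 scale.

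Fcgr1 had 2223 UMIs, or 367 CPM (352 to 383), in CD, and 3745 UMIs, or 339 CPM (328 to 350), in Repop D5. The ratio of 0.924 (0.877 to 0.975) was short of the 1.5-fold needed for a call. The direction of Fcgr1 depended on the scaling, since its ratio was 1.27 with a trimmed-mean scaling and 1.11 with totals that left out mitochondrial and ribosomal protein genes.

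Fcgr4, an activating receptor that binds IgG2 subclasses, was the scarcest of the 5 genes, with 160 UMIs in CD and 484 in Repop D5. Its level was 26.4 CPM (22.5 to 30.8) in CD against 43.8 CPM (40.0 to 47.9) in Repop D5, a ratio of 1.66 (1.39 to 2.00). Outside clusters 6, 7 and 9 the levels were 21.5 and 42.4 CPM, a ratio of 1.97 (1.56 to 2.51). Without the cells of cluster 4, an interferon-gene cluster described below, the ratio over the remaining cells was 1.44, and with a stricter cell filter it was 1.49, neither of which reaches 1.5. That filter kept 600 of 609 CD cells but 313 of 553 Repop D5 cells. Neutrophil and monocyte markers did not move in one way with Fcgr4: the 11 neutrophil markers came to 13405 CPM in CD against 2183 in Repop D5, and the 8 monocyte markers to 288 and 289 CPM. Outside clusters 6, 7 and 9 the monocyte markers summed to 76.5 and 183 CPM, and their part in the Fcgr4 difference was not tested.

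The inhibitory receptor Fcgr2b had 1921 UMIs in CD and 1400 in Repop D5. Its level was 317 CPM in CD against 127 in Repop D5, 2.50-fold lower (2.33 to 2.68). It was 2.27-fold lower, at 288 against 127 CPM, outside clusters 6, 7 and 9. Border macrophage markers moved with Fcgr2b: the 8 genes came to 975 CPM in CD, with 8 of 8 at 10 CPM, and to 112 CPM for Repop D5, with 5 of 8 at 10 CPM and Cd209f at 0. They summed, outside clusters 6, 7 and 9, to 392 and 61.1 CPM, and their part in the remaining difference was not tested.

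The gamma chain Fcer1g, which also serves receptors other than those for IgG, was the most abundant of the 5 genes by UMI count, with 20114 UMIs in CD and 29528 in Repop D5. Its level was 3321 CPM in CD against 2675 in Repop D5, a ratio of 0.805 (0.791 to 0.820). With the trimmed-mean scaling the ratio was 1.11, so its direction, like that of Fcgr1, was not settled by these libraries. Mast cells and NK cells, which also use Fcer1g, were nearly absent: their marker lists summed to under 1 CPM in each library, with Fcer1a, Mcpt4 and Tpsb2, and Klrb1c, Klre1, Ncr1 and Prf1, at 0 in both.

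The trimmed-mean scaling moved every ratio up by 0.46 on the log2 scale and the median gene to 0.08. On it 30.2% of 8703 genes were higher and 21.7% lower, in place of a majority of lower calls. Fcgr3 (0.490), Fcgr2b (0.549) and Fcgr4 (2.28) kept their calls with this scaling. Relative to the median gene the differences of Fcgr3, Fcgr2b and Fcgr4 were -1.10, -0.93 and 1.09 with library totals, and -1.11, -0.94 and 1.08 with the trimmed mean. Outside clusters 6, 7 and 9 the calls of the 5 genes were also 1 higher, 2 lower and 2 neither, where 17.4% of 8473 genes were higher and 42% were lower.

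**Figure D1:**
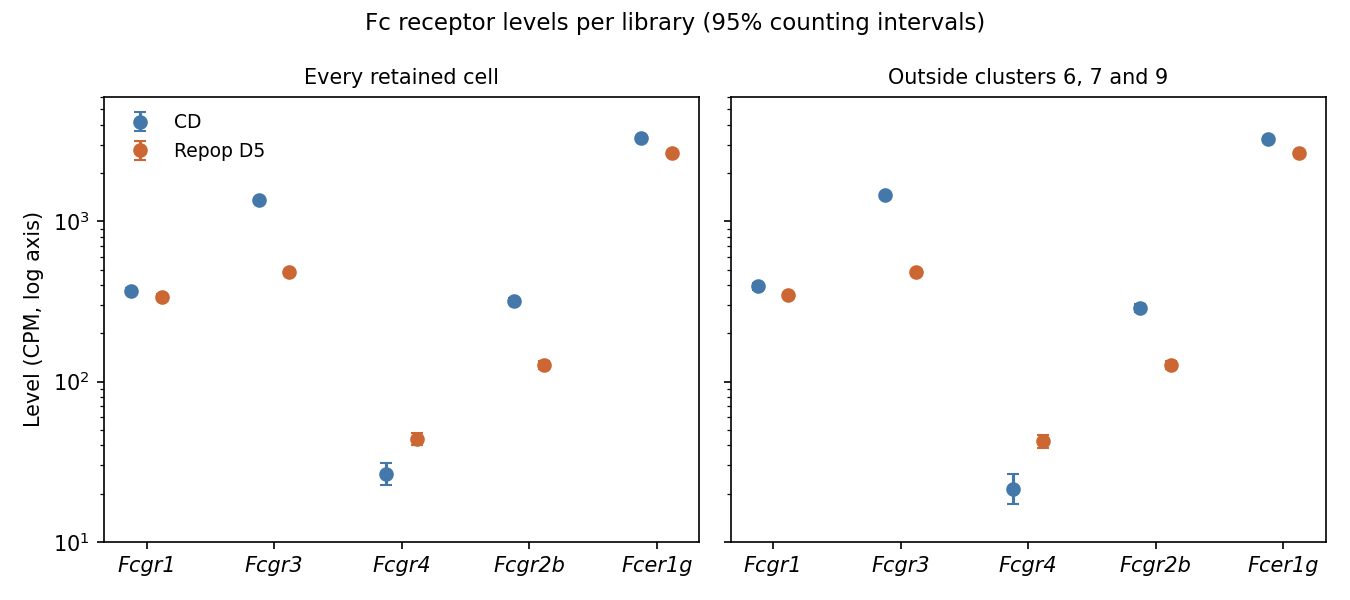
Level of each Fc receptor gene in CPM (log axis) in the CD (blue) and Repop D5 (orange) libraries, for every retained cell and for cells outside clusters 6, 7 and 9, with exact Poisson 95% intervals, mostly smaller than the points. Fcgr3 and Fcgr2b lie lower in Repop D5 and Fcgr4 higher in both panels.

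Ratios between the receptors need no scaling between the libraries. Fcgr3 made up 65.6% of the UMIs of the 4 IgG receptors in CD and 48.7% in Repop D5, and Fcgr1 17.8% and 34.1%. Fcgr4 made up 1.28% and 4.41%, and Fcgr2b 15.4% and 12.8%. The receptor UMIs of Repop D5 thus held a larger share of Fcgr1 and Fcgr4 and a smaller share of Fcgr3, a shift that was as clear outside clusters 6, 7 and 9 (Fcgr1 18.2% and 34.6%, Fcgr3 67.4% and 48.4%, Fcgr4 0.999% and 4.26%). UMIs were not divided by transcript length, so these shares compare libraries and not genes. Per Fcgr3 UMI there were 0.271 Fcgr1 UMIs in CD and 0.701 in Repop D5, a 2.59-fold difference (2.43 to 2.76).

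The balance of activating to inhibitory receptors differed much less than its parts. There were 5.51 activating UMIs (Fcgr1, Fcgr3 and Fcgr4 together) per Fcgr2b UMI in CD and 6.84 in Repop D5, a ratio of ratios of 1.24 (1.15 to 1.34). Outside clusters 6, 7 and 9 the values were 6.49 and 6.86, and the ratio of ratios was 1.06 (0.970 to 1.15), an interval that includes no difference. The Fcgr2b share of receptor UMIs there was 13.4% in CD and 12.7% in Repop D5. Over every retained cell, Fcgr3 alone against Fcgr2b gave 0.893 (0.826 to 0.965), below 1, while Fcgr1 and Fcgr4 against Fcgr2b gave 2.44. Fcgr3 alone against Fcgr2b was further below 1 outside clusters 6, 7 and 9, at 0.753 (0.689 to 0.823). The summed balance therefore joins 2 opposite shifts among the activating receptors. The gamma chain was more plentiful relative to the alpha chains it serves. Over every retained cell there were 1.90 Fcer1g UMIs per activating receptor UMI in CD and 3.08 in Repop D5. That is a ratio of 1.62 (1.57 to 1.68).

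**Figure D2:**
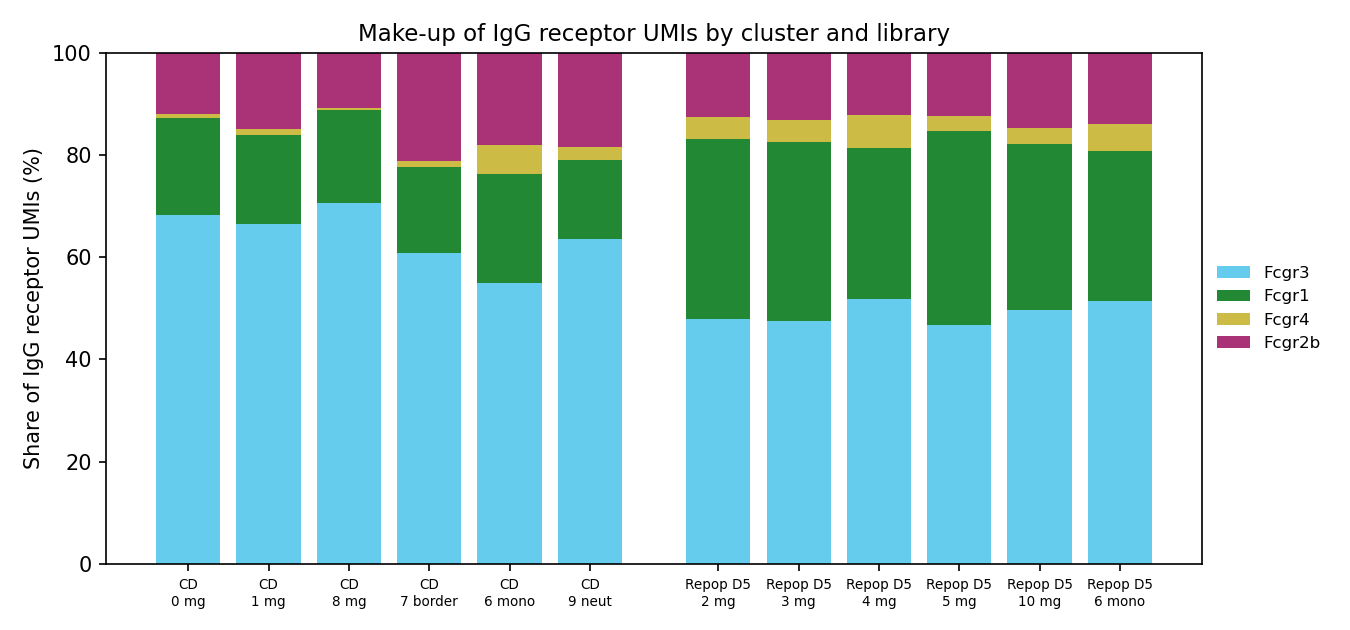
Share (%) of Fcgr3, Fcgr1, Fcgr4 and Fcgr2b among the UMIs of the 4 IgG receptors in each cluster and library with at least 20 cells (mg, microglia-like; border, border macrophage-like; mono, monocyte-like; neut, neutrophil-like). Fcgr1 takes a larger share in each Repop D5 group than in any CD group, and Fcgr2b takes its largest share, 21.2%, in the border macrophage-like CD cluster.

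Levels were then followed through the 12 groups of at least 20 cells that a cluster and a library define, 6 from each library. Apart from clusters 6, 7 and 9, the CD groups were clusters 0, 1 and 8 and the Repop D5 groups clusters 2, 3, 4, 5 and 10. None of these clusters had a group in both libraries, so their levels are given by cluster number and library and not as a difference within a cell type. Fcgr3 lay at 1588, 1371 and 1511 CPM in CD clusters 0, 1 and 8, and at 463, 466, 732, 414 and 438 CPM in Repop D5 clusters 2, 3, 4, 5 and 10. Fcgr2b lay at 276, 307 and 229 CPM in these CD clusters and at 108 (cluster 5) to 172 CPM (cluster 4) in the Repop D5 clusters. Fcgr4 ranged from 10.4 (cluster 8) to 23.9 CPM (cluster 1) in CD and from 27.1 (cluster 10) to 89.5 CPM (cluster 4) in Repop D5. Its counting intervals in clusters 5 and 10 overlapped those of the CD clusters. Fcgr1 lay at 360 (cluster 1) to 444 CPM (cluster 0) in CD and 286 (cluster 10) to 419 CPM (cluster 4) in Repop D5. Fcer1g was nearly level among the CD clusters, at 3252 to 3326 CPM, and lay at 2507 to 3105 CPM in the Repop D5 clusters.

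Among the CD groups, the border macrophage-like cluster 7 (67 cells) had the highest Fcgr2b level, 462 CPM (422 to 505), an interval clear of those of the other CD groups. The next levels were 307 CPM (284 to 331) in cluster 1 and 289 CPM (251 to 331) in cluster 9. Its Fcgr1, at 364 CPM (329 to 403), and its Fcgr3, at 1328 CPM (1260 to 1400), overlapped those of cluster 1. It had 3.72 activating UMIs per Fcgr2b UMI, the lowest value of the 12 groups. Microglial RNA was present in the barcodes of cluster 7, whose 10 microglia markers summed to 30938 CPM. Of the CD clusters 0, 1 and 8, cluster 1 had 5.72 activating UMIs per Fcgr2b UMI, against 7.44 in cluster 0 and 8.35 in cluster 8. The border macrophage markers summed to 545 CPM in cluster 1, against 215 and 203 CPM in clusters 0 and 8, and their part in this was not tested.

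The monocyte-like cluster 6 was the group of CD with the most Fcgr4, 78.7 CPM (44.0 to 130) from 15 UMIs, and the least Fcgr3, 782 CPM (661 to 918). Its 49 Repop D5 cells had Fcgr4 at 54.0 CPM (39.3 to 72.5), overlapping the CD value, and Fcgr3 at 513 CPM (465 to 565), below it. Fcgr2b in this cluster was 257 CPM (190 to 340) in CD against 138 CPM (113 to 165) in Repop D5. The lower Fcgr3 and Fcgr2b levels of the Repop D5 library were thus also present in this cluster, the one named cluster with at least 20 cells in each library. Microglia markers summed to 15207 CPM in its CD cells and 11249 CPM in its Repop D5 cells, so these barcodes held microglial RNA too. Monocyte markers came to 3630 CPM in its CD cells and 1504 CPM in its Repop D5 cells. The cells of this cluster thus differed in make-up between the libraries. The part of this, and of the microglial RNA, in the Fcgr3 and Fcgr2b levels was not tested. The neutrophil-like cluster 9 (49 CD cells) had the lowest Fcgr1 level of the 12 groups, 243 CPM (208 to 282), an interval that overlapped that of the monocyte-like cells, with microglia markers at 27336 CPM.

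Within Repop D5, cluster 4 (105 cells) had the highest level of each of the 5 genes among the 6 groups, although these genes took no part in the clustering. Its leading genes were interferon-stimulated genes such as Ifit3, Isg15 and Irf7, and Fcgr4 was itself among the 10 genes with the highest fold over the other cells. Fcgr4 was at 89.5 CPM (73.9 to 107) in cluster 4, against 35.6 CPM in the 390 Repop D5 cells of clusters 0 (1 cell), 2, 3, 5 and 10, a ratio of 2.51 (2.01 to 3.12). Fcgr3 was at 732 against 446 CPM, a ratio of 1.64 (1.53 to 1.76). Fcgr2b was at 172 against 120 CPM (1.43, 1.23 to 1.66), Fcgr1 at 419 against 334 CPM (1.25, 1.14 to 1.37) and Fcer1g at 3105 against 2587 CPM (1.20, 1.16 to 1.24). The intervals of Fcgr1, Fcgr3 and Fcgr4 in cluster 4 lay clear of those of the other Repop D5 groups. The Fcgr2b interval overlapped those of clusters 6 and 10, and the Fcer1g interval that of cluster 6. The activating receptors and the inhibitory receptor were therefore both more abundant in this cluster, with Fcgr4 furthest apart, and its 7.21 activating UMIs per Fcgr2b UMI lay near the 5.80 to 7.17 of Repop D5 clusters 2, 3, 5 and 10. Cluster 4 had a median of 10354 UMIs per cell, the lowest of the 6 Repop D5 groups, and the part of depth in these levels was not tested. Cluster 5, led by mitosis genes, had the lowest Fcgr3, Fcgr2b and Fcer1g levels of the 6 groups, at 414, 108 and 2507 CPM, and the largest median depth, 25781 UMIs.

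**Figure D3:**
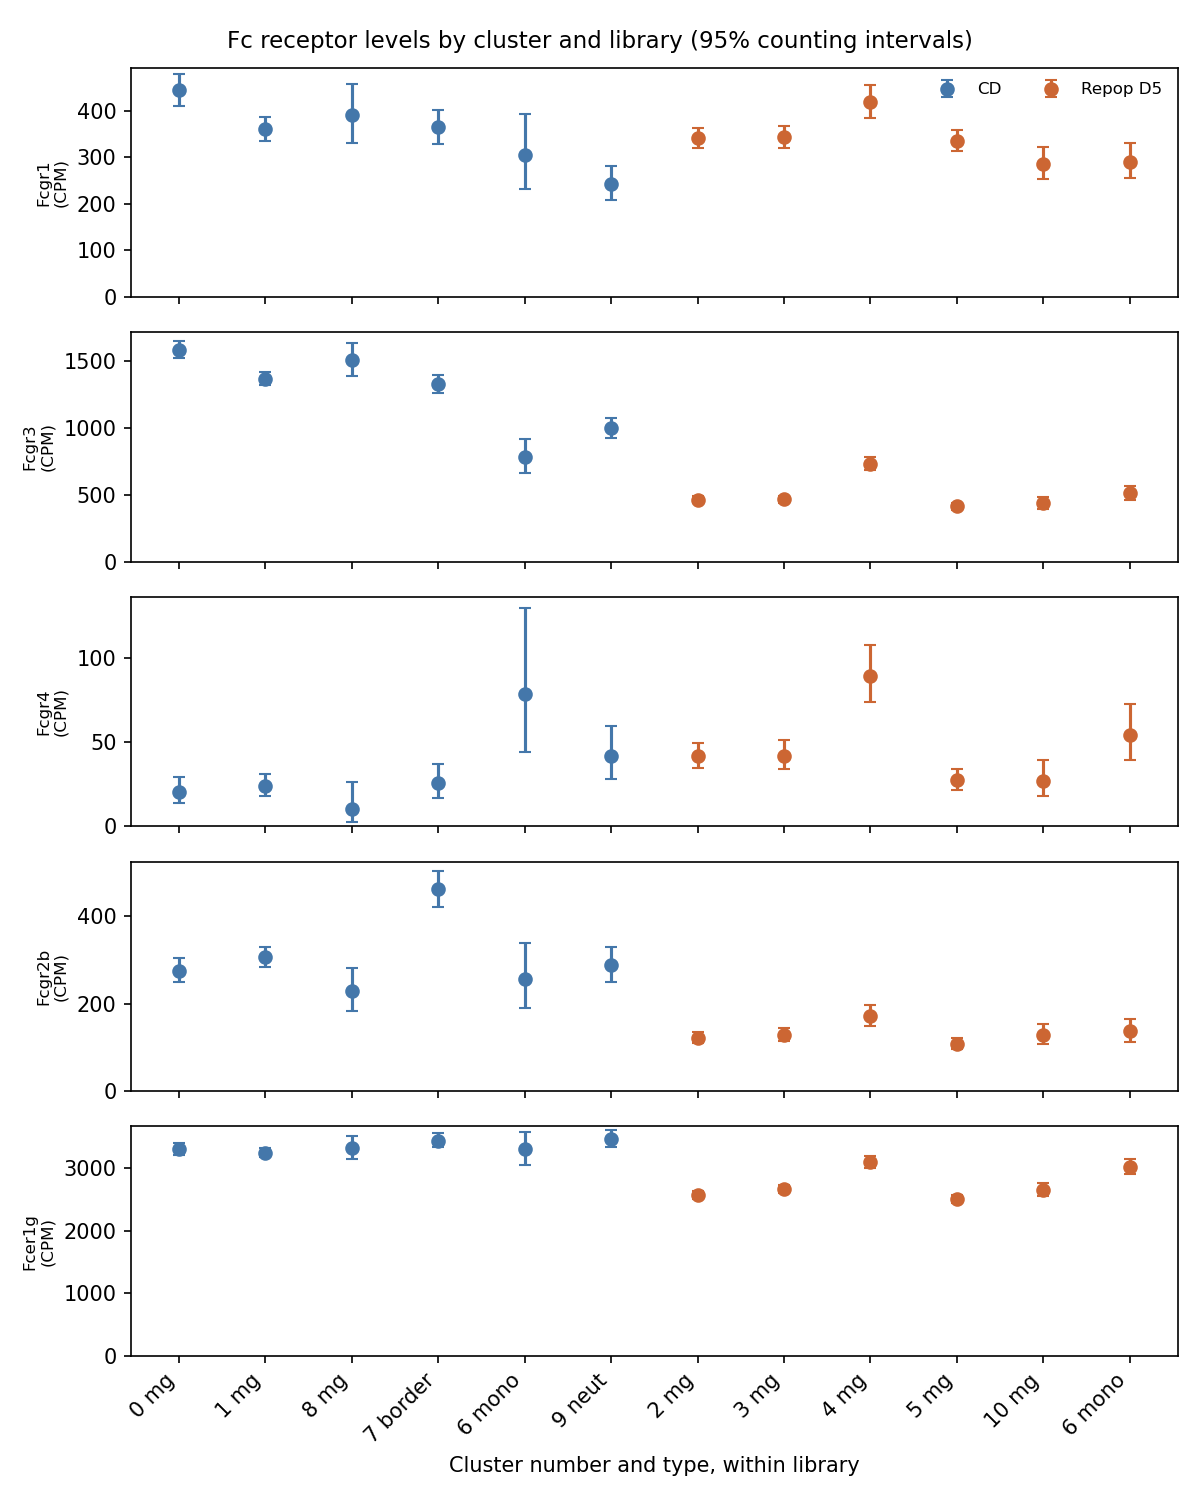
Level in CPM (linear axes from 0) of each Fc receptor gene in the 12 cluster-by-library groups, CD in blue and Repop D5 in orange, with exact Poisson 95% intervals (mg, microglia-like; border, border macrophage-like; mono, monocyte-like; neut, neutrophil-like). Fcgr3 and Fcgr2b lie lower in the Repop D5 groups, Fcgr2b peaks in cluster 7 and Fcgr4 in cluster 4.

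Cell by cell, Fcgr3 as a share of a cell's UMIs was lower in Repop D5 at the low end, the middle and the high end of the cells. In raw UMIs, from cells of unequal depth, the median cell held 9 Fcgr3 UMIs in CD and 8 in Repop D5. The raw medians were 2 and 2 for Fcgr2b, 3 and 6 for Fcgr1, and 21 and 44 for Fcer1g. Per 10000 UMIs of a cell, the median Fcgr3 count was 13.4 in CD, with the 10th and 90th percentiles at 6.27 and 22.7, and 4.69 in Repop D5, with percentiles at 2.11 and 8.86. For Fcgr2b the medians were 2.55 and 1.11, for Fcgr1 3.38 and 3.20, and for Fcer1g 32.5 and 26.1. Fcgr4 had a median of 0 in each library, and its 90th percentile was 1.02 in CD and 1.39 in Repop D5.

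To compare shares of cells with at least 1 UMI, each cell was thinned to 3000 UMIs, which left out 10 CD cells and no Repop D5 cell. Fcgr3 was then found in 96.8% of 599 CD cells (exact interval 95.1 to 98.1) and 75.9% of 553 Repop D5 cells (72.2 to 79.5). Fcgr2b was found in 54.8% and 32.9%, Fcgr1 in 66.4% and 62.2%, Fcgr4 in 7.01% and 12.7%, and Fcer1g in 99.7% and 99.8%. Cells with UMIs of both Fcgr3 and Fcgr2b made up 53.4% of CD and 25.1% of Repop D5, and cells with neither made up 1.84% and 17.4%. Without thinning, the shares were 99.2% and 98.6% for Fcgr3, 75.2% and 79.4% for Fcgr2b, 86.2% and 95.1% for Fcgr1, 18.7% and 48.1% for Fcgr4, and 100% in each library for Fcer1g, in cells of unequal depth.

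The neutrophil-like CD cells were looked at because microglial RNA was present in them and neutrophils are not known for Fcgr1. Their microglia markers summed to 27336 CPM, against 36382 to 39271 CPM in CD clusters 0, 1 and 8. The source of this microglial RNA was not tested, so the shares in these cells are not a reading of free RNA. After thinning, 37.5% of 48 such cells (median 8785 UMIs) had an Fcgr1 UMI, 89.6% an Fcgr3 UMI, 10.4% an Fcgr4 UMI and 43.8% an Fcgr2b UMI. Neutrophils carry Fcgr3 and Fcgr4 and can carry Fcgr2b, so for these genes too the values are no measure of background. The Fcgr1 share of the whole CD library, 66.4%, lay above the 37.5% of its neutrophil-like cells, which sets no background level. In Repop D5, 7 cells were neutrophil-like (median 5416 UMIs), too few to be read in this way.

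**Figure D4:**
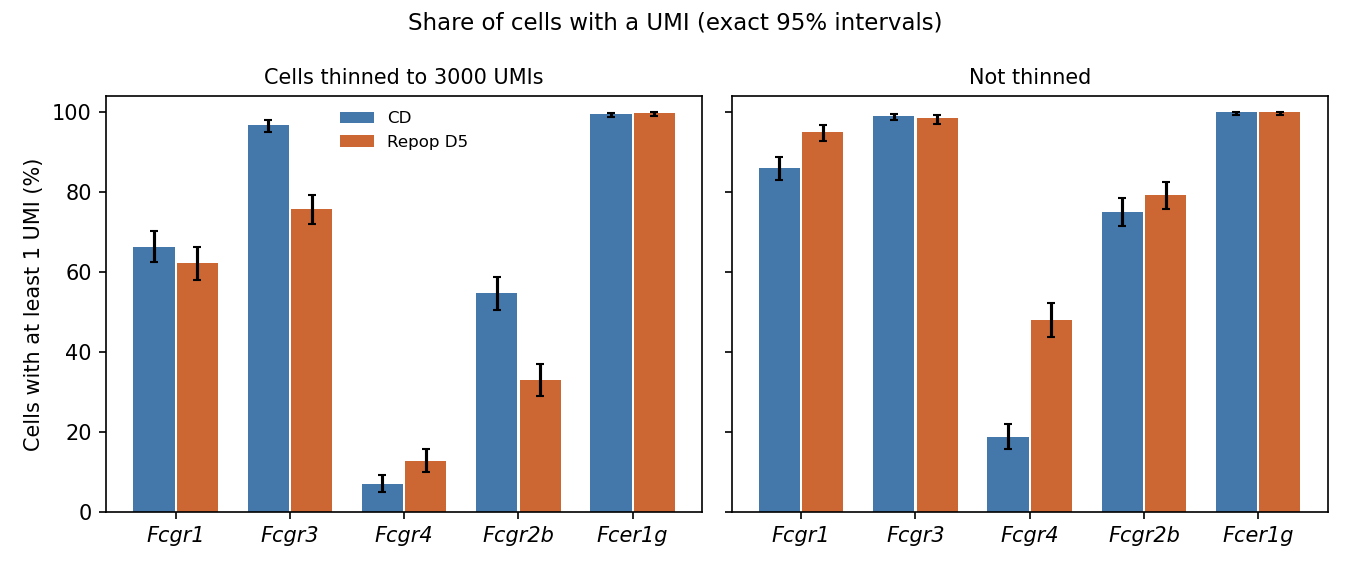
Share (%) of cells with at least 1 UMI of each Fc receptor gene in the CD (blue) and Repop D5 (orange) libraries, thinned to 3000 UMIs per cell (left) and not thinned (right), with exact Clopper-Pearson 95% intervals. After thinning the Fcgr3 bar is at 96.8% in CD and 75.9% in Repop D5, while the unthinned bars are at 99.2% and 98.6%.

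Over the 12 groups, the 5 genes fell into different patterns. Pearson's r of log2(CPM + 1) was 0.89 between Fcgr3 and Fcgr2b, 0.87 between Fcgr3 and Fcer1g, and 0.90 between Fcgr2b and Fcer1g. It was 0.42 between Fcgr1 and Fcgr3 and -0.47 between Fcgr4 and Fcgr3. Groups of a library share that library and its depth, so these values describe the groups and have no test. Of 3357 genes at 50 CPM, those most like Fcgr3 were Adap2os (0.995), the microglial lipid receptor Trem2 (0.987) and the lysosomal carboxypeptidase Ctsa (0.987). Those most like Fcgr2b were Fcho2 (0.985), the chemokine Ccl24 (0.977) and Atg101 (0.970). For Fcgr4 they were the interferon-induced Ifitm3 (0.883), Hpcal1 (0.859) and Slfn2 (0.855). For Fcgr1 they were Ergic3 (0.883), Plbd2 (0.882) and Pld4 (0.853), and for Fcer1g the selenoprotein Sepp1 (0.952), Crebrf (0.952) and Bckdha (0.951).

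Genes that work with the Fc receptors were followed in 6 lists. Of 89 listed genes 72 were measured at 10 CPM, and 8 were higher in Repop D5 (11.1%), 41 were lower (56.9%) and 23 were neither, against the 16.8% and 42.1% over all genes. Their median log2 ratio was -0.70, against -0.38 for all genes. With the trimmed-mean scaling 11 were higher and 23 lower, where 30.2% of all genes were higher and 21.7% lower. The log2 shift of that scaling is larger than the gap to 0 for ratios just under 1, so Tyrobp and Cyba, given below as neither, lie above 1 on it.

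Among other Fc and Fc-like receptors 3 of 13 listed genes were measured and 3 were lower, with a median log2 ratio of -2.48. Over all genes 42.1% were lower, or 21.7% with the trimmed-mean scaling, which left these 3 lower. Fcrls, an Fc receptor-like gene typical of microglia, was at 1985 CPM in CD against 491 in Repop D5. Fcgrt, the neonatal Fc receptor that recycles IgG inside cells, was at 149 and 25.7 CPM. Fcrl1 was at 38.1 and 1.81 CPM. Fcer1a, the alpha chain of the IgE receptor, was at 0 UMIs in both libraries.

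Of the other ITAM adaptors and partners of the gamma chain, 5 of 8 were measured, 4 were lower and 1 was neither. That is 80% lower, against 42.1% over all genes. Tyrobp (DAP12), the other main ITAM adaptor of microglia, was at 3675 CPM in CD against 3055 in Repop D5, a ratio of 0.831, close to the 0.805 of Fcer1g. Hcst (DAP10) was 1.52-fold lower, but its ratio of 0.657 became 0.732 outside clusters 6, 7 and 9 and 0.901 with the trimmed-mean scaling, neither of them a call. The C-type lectin Clec4d was 5.63-fold lower and Clec4n (Dectin-2), which signals through Fcer1g, 20.4-fold lower, at 38.8 against 1.90 CPM. Outside clusters 6, 7 and 9 Clec4d was under the minimum of 10 CPM in each library and Clec4n was 11.8-fold lower. Clec4n was a leading gene of the border macrophage-like cluster 7. Without clusters 6, 7 and 9, 3 genes of this list were measured, of which 1 was lower, against 42% of all genes.

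Of 24 measured genes of activating signalling, 5 were called higher, 12 lower and 7 neither, and the median log2 ratio was -0.58. The shares of 20.8% higher and 50% lower were near those over all genes (16.8% and 42.1%). With the trimmed-mean scaling 6 were higher and 4 lower, with a median of -0.12, where 30.2% of all genes were higher and 21.7% lower. The Src-family kinase Fyn was 2.70-fold higher (10.1 and 27.2 CPM) and the adaptor Lat2 2.60-fold higher (147 and 383 CPM). Src itself was 5.51-fold lower (22.0 and 4.0 CPM) and Pik3r1, the regulatory subunit of PI3-kinase, 2.49-fold lower. Lyn, the kinase that phosphorylates both ITAM and ITIM, was at 440 and 299 CPM, and the GTPase Rac1 at 416 and 496 CPM, neither past 1.5-fold. Lyn was just past it outside clusters 6, 7 and 9, 1.51-fold lower, and Rac1 was 1.63-fold higher with the trimmed-mean scaling. Syk, named for its place at the gamma chain after its values were seen, was at 85.4 and 35.5 CPM, 2.40-fold lower.

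Of 20 measured genes of inhibitory signalling, 2 were called higher, 12 lower and 6 neither, and the median log2 ratio was -0.94. That is 10% higher and 60% lower, against 16.8% and 42.1% over all genes. With the trimmed-mean scaling 2 were higher and 9 lower, with a median of -0.49, where 30.2% of all genes were higher and 21.7% lower. Dok2, an adaptor that dampens kinase signalling, was 8.68-fold higher (7.27 and 63.1 CPM) and the ITIM receptor Cd72 was 5.81-fold higher (14.5 and 84.4 CPM). The ITIM receptors Cd300a and Pecam1 were 8.72-fold and 5.63-fold lower, and the abundant Sirpa and Lair1 were 3.27-fold and 2.24-fold lower. Inpp5d, the phosphatase recruited by Fcgr2b and also named after its values were seen, was at 434 and 206 CPM, a ratio of 0.475 (0.449 to 0.503).

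The NADPH oxidase, which makes the oxidative burst after Fc receptor binding, had 6 measured genes, 1 higher, 1 lower and 4 neither, with a median log2 ratio of -0.19. That is 16.7% higher and 16.7% lower, against 16.8% and 42.1% over all genes. With the trimmed-mean scaling 2 were higher and 0 lower, and the median was 0.26, where 30.2% of all genes were higher and 21.7% lower. The catalytic subunit Cybb was 1.81-fold higher (72.3 and 131 CPM), and outside clusters 6, 7 and 9 it was 5.05-fold higher (4.08 to 6.30), at 22.7 and 115 CPM. Ncf4 was at 77.1 and 105 CPM, a ratio of 1.37 that became 1.88 with the trimmed-mean scaling. Cyba, the membrane partner of Cybb, was at 1446 and 1318 CPM. Ncf1 was at 272 and 193 CPM, and the proton channel Hvcn1 was 1.90-fold lower, a call lost with the trimmed-mean scaling (0.723). Of 14 genes known to control Fc receptor expression, 0 were called higher, 9 lower and 5 neither, and the median log2 ratio was -0.76. That is 0% higher and 64.3% lower, against 16.8% and 42.1% over all genes. With the trimmed-mean scaling 1 was higher and 4 lower, with a median of -0.32, where 30.2% of all genes were higher and 21.7% lower. Ifngr1, the receptor chain for interferon gamma that induces Fcgr1 and Fcgr4, was 2.87-fold lower, Irf1 3.23-fold lower, Il10ra 3.18-fold lower and Tgfbr1 2.72-fold lower. The complement receptor C5ar1 was at 179 and 191 CPM, neither past 1.5-fold.

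**Figure D5:**
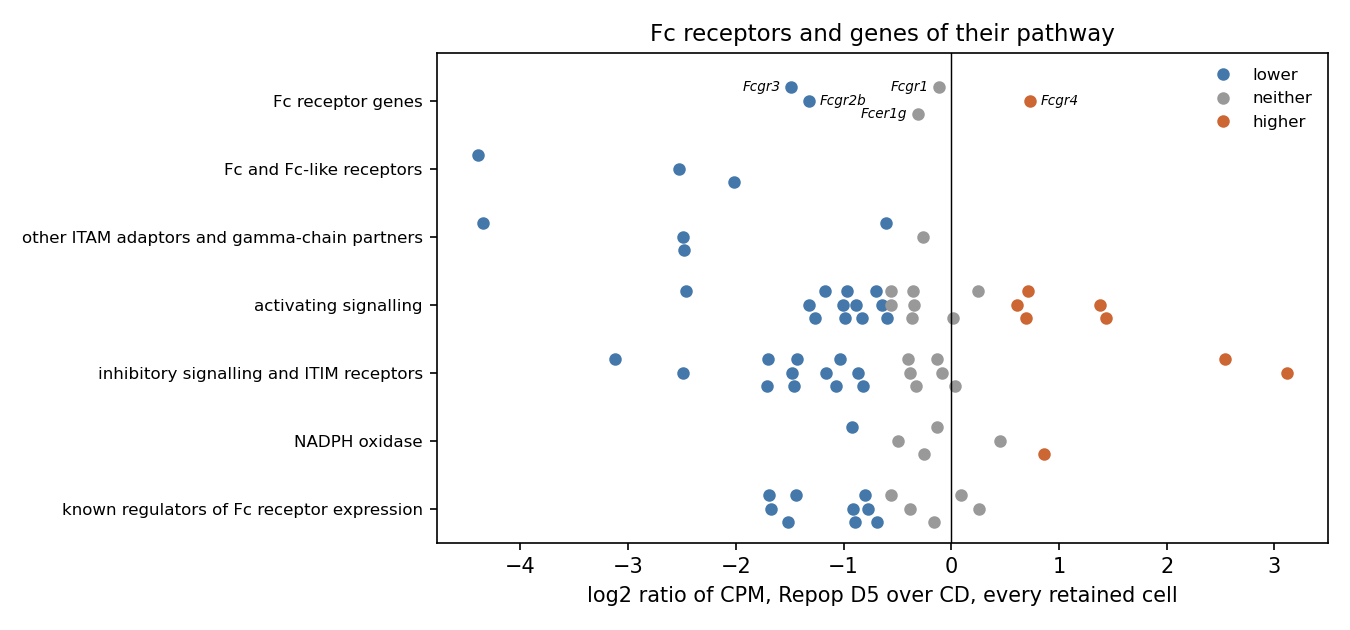
Ratio of Repop D5 over CD (log2 axis, CPM over every retained cell) of the 5 Fc receptor genes and of the measured genes of 6 pathway lists, 1 point per gene, coloured by call at 1.5-fold. Of the 72 pathway genes 41 lie in the lower class (56.9%, against 42.1% of all genes) and 8 in the higher class (11.1%, against 16.8%). The list of known regulators has none in the higher class with these library totals.

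Sequence shared between the genes limits how well their counts are told apart. The library chemistry is not given in the sources used here, and the check was made on the last 500 bases of the annotated transcripts. Of the 31-base words of these ends, 5.10% of those of Fcgr2b (76 of 1489) were also found in Fcgr3. For Fcgr3, 0.521% (5 of 960) were also found in Fcgr2b. Of those of Fcgr1 and Fcer1g, 0% were shared with any gene. For Fcgr4 3.40% were shared with genes elsewhere. An antisense gene overlapping Fcgr2b, Gm38204, had 0 UMIs in both libraries.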

How the data were processed

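RNA of single CD11b+/CD45+ brain cells was measured in 2 droplet libraries, CD and Repop D5. Per the submitters' processing notes, reads were processed with Cell Ranger 2.1.0 on mm10. The annotation release, the rule for calling cells and the use of strand are not given in the sources used here. The values deposited by the authors are raw UMI counts for each gene and barcode, without normalization.

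The 5 genes, the gene lists and the alternatives were chosen with earlier results of these data known. Cells with at least 500 genes and under 10% mitochondrial UMIs were retained (609 of 609 in CD, 553 of 585 in Repop D5), and no doublets were removed. UMIs were summed per library or cluster and scaled to a common total (CPM). At these depths a floor of 3 counts is 0.495 CPM in CD and 0.272 in Repop D5. Ratios have exact conditional binomial 95% intervals, levels exact Poisson and shares exact Clopper-Pearson intervals. Cells of both libraries were clustered with scanpy 1.11.5 in Python 3.11.15 without the 5 genes (15 neighbours on 30 components from 2000 variable genes) and split by leidenalg 0.10.2 at resolution 1 with a fixed seed. A cluster took another type's name at 3 or more of that type's markers among its 10 leading genes (highest fold among genes at 50 CPM in at least 25% of its cells). That clusters of under 20 cells stay unnamed was decided after seeing them. Thinned shares are medians of 20 draws. The scripts were tested on simulated data.

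Of each pathway list the 2 genes with the highest, the 2 with the lowest ratios and the 2 most abundant were named, and for each receptor gene the 3 genes with the highest correlation over groups, leaving out predicted genes. A gene that this rule would name is not reported here. Pathway genes Clec7a and Lilrb4 were not matched by symbol and were not used here. Marker lists of 19 cell types were summed. Levels in CPM were compared under the alternative cell filters, scalings, clusterings and thresholds given in the closing section.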

Additional observations from a re-analysis of the deposited data

How the results depend on the processing

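Fcgr3 and Fcgr2b were below 1 and Fcgr4 above 1 under each of the 14 alternatives run for a ratio (0.321 to 0.490, 0.353 to 0.549 and 1.44 to 2.28). Fcgr1 lay below 1 in 12 and above 1 in 2 of them (0.798 to 1.27), and Fcer1g below 1 in 13 and above 1 in 1 (0.785 to 1.11). The activating to inhibitory ratio of ratios ranged from 0.893 to 2.44, below 1 in 3 of 16 alternatives. Both ends came from alternatives that changed which activating receptors were summed, Fcgr3 alone (0.893) and Fcgr1 with Fcgr4 (2.44). The other alternatives ranged from 0.948 to 1.37, and the cause of their spread was not tested. With 1 library per group no replicate could be left out, and no paired analysis was possible because each group has 1 sample.

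By setting, the values that moved beyond the counting interval, or by over 1.5 times for a count, were as follows. The filter at 1000 genes and 5% mitochondrial UMIs gave 0.353 for Fcgr2b, 0.785 for Fcer1g, 1.37 for the ratio of ratios and 0 of the 5 genes higher. That filter kept 600 CD cells and 313 Repop D5 cells, and with it 17.5% of all genes were higher. Trimmed-mean scaling gave 1.27, 0.490, 2.28, 0.549 and 1.11 for Fcgr1, Fcgr3, Fcgr4, Fcgr2b and Fcer1g, and 23 pathway genes lower, where 21.7% of all genes were lower. Totals without mitochondrial and ribosomal protein genes gave 1.11, 0.430, 2.00, 0.482 and 0.970 in the same order. Equal weight per cell gave 0.859 for Fcgr1, 0.375 for Fcgr3, 0.479 for Fcgr2b, 0.824 for Fcer1g and 1.05 for the ratio of ratios. Thinning to 3000 UMIs gave 0.864 for Fcgr1 and 0.379 for Fcgr3. Outside the clusters of other types Fcgr3 was 0.332, Fcgr2b 0.440 and the ratio of ratios 1.06. With the 5 genes left in that clustering, Fcgr1, Fcgr3, Fcgr4 and Fcgr2b were 0.823, 0.321, 2.18 and 0.460 and the ratio of ratios 0.973. At resolution 0.5, Fcgr1, Fcgr3 and Fcgr2b were 0.798, 0.328 and 0.475 and the ratio of ratios 0.948. At resolution 2, Fcgr3 and Fcgr2b were 0.340 and 0.437 and the ratio of ratios 1.09. Fcgr3 alone as activating gave a ratio of ratios of 0.893, and Fcgr1 with Fcgr4 gave 2.44. A 2-fold call gave 0 of the 5 genes higher, 4 pathway genes higher and 25 lower, where 9.61% of all genes were higher and 23.8% lower. A minimum of 50 CPM gave 0 of the 5 higher, where 23.5% of all genes were higher. Fcgr4, at 26.4 and 43.8 CPM, was under that minimum and could not be called. Without cluster 4, an alternative chosen after seeing the data, Fcgr3 was 0.333 and Fcer1g 0.789. There 0 of the 5 genes were higher, against 17.3% of all genes. The count of lower genes stayed at 2 in each of the 17 alternatives run for it, while the lower share of all genes ran from 21.7% to 42.9%.

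Shares of cells depend on depth. Thinned to 1500 UMIs, CD and Repop D5 had 43.8% and 39.2% for Fcgr1, 85.2% and 51.7% for Fcgr3, 3.45% and 6.69% for Fcgr4, 33.7% and 18.8% for Fcgr2b, and 98.4% and 97.8% for Fcer1g. Not thinned, they had 86.2% and 95.1%, 99.2% and 98.6%, 18.7% and 48.1%, 75.2% and 79.4%, and 100% and 100% in the same order.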
